A study of Mus musculus with 62 samples.

Results

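Transcripts of 10 genes of the growth hormone and insulin-like growth factor (IGF) axis were followed in the liver, prefrontal cortex and striatum of female mice given polychlorinated biphenyls (PCBs). The genes were Ghr, Igf1, Igfals, Igf1r, Igf2 and Igfbp1 to Igfbp5, taken by their mouse Entrez identifiers from count tables that together list 18821 different genes. Igf1 was selected on its measured level in the striatum, which was lower at 6 mg/kg, so its striatal values at that dose are given as a description with no test. The mice were female C57BL/6, an inbred laboratory strain, and received the MARBLES mixture of PCBs by mouth at 0 (vehicle), 0.1, 1 or 6 mg/kg. No other treatment or allele is labelled, and age and the time from dose to sampling are not given in the sources used here. For each brain region there were 4 libraries of vehicle mice, 5 of the 0.1 mg/kg group and 6 of each higher dose. For the liver there were 4, 4, 6 and 6 in the same order, which makes 62 libraries. The labels describe punches of the brain regions and do not state that libraries of a group are separate animals, although the titles carry numbers, written here as animal 3, 4 and so on. P-values therefore measure the spread between these libraries.

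Growth hormone from the pituitary acts on its receptor in the liver and, through the kinase JAK2 and the transcription factor STAT5, drives transcription of Igf1 and Igfals. The secreted IGF1 circulates in a complex with IGFBP3 and the acid-labile subunit encoded by Igfals, and it signals in target tissues through the IGF1 receptor. IGFBP1, by contrast, is a liver binding protein whose gene is repressed by insulin and induced in fasting. In the brain, IGF1 is made locally by neurons and glia, and IGF2 comes mainly from the meninges, the choroid plexus and blood vessels.

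The stretches upstream of Igfbp1 and Igfals are shown because among the 10 genes these held matches to the searched motifs of insulin and growth hormone signalling. They are the 250 bases before the RefSeq start (build GRCm38.p6), both on the plus strand. The Igfbp1 stretch is chr11:7197537-7197786, and its capitals mark CAAAACA, the core of the insulin response element, 108 bases before the start. The Igfals stretch is chr17:24877594-24877843, and its capitals mark a match to TTCNNNGAA, the STAT5 motif, 236 bases before the start.
Igfbp1: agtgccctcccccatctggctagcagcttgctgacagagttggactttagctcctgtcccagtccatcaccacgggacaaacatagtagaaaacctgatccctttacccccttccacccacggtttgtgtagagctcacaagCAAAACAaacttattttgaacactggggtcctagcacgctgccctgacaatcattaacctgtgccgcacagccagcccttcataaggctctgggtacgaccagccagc
Igfals: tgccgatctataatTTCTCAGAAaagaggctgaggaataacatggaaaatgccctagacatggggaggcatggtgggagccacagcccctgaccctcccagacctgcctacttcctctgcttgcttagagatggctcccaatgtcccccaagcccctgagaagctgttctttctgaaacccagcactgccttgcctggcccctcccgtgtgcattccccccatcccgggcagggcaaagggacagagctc

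Motifs were searched on both strands in windows from 250 bases before to 50 bases after each start, 17 windows for the 10 genes. CAAAACA was in 6.28% of 32851 RefSeq promoter windows and, among the axis genes, in the Igfbp1 window alone. TTCNNNGAA was in 8.3% of all windows and in 2 windows of Igfals, 236 and 58 bases before their starts. The FOXO motif GTAAACA was in 3.65% of all windows and in 1 of the Igfals windows, 242 bases before another of its starts. These matches describe letters in the windows and nothing more. The genes of 2 pairs are neighbours, with Igfbp1 and Igfbp3 separated by 3.54 kb on chromosome 11 and Igfbp2 and Igfbp5 by 5.59 kb on chromosome 1. Igf1 (chr10:87858265-87937047, plus strand) overlaps the RefSeq gene Igf1os, and Igf2 (chr7:142650768-142666816, minus strand) overlaps Igf2os and Mir483. The use of strand in counting is not stated, so reads of such overlapping genes cannot be told apart.

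Library totals ran from 7.38 to 10.2 M (mega) counts in the liver, from 8.72 to 12.1 M in the prefrontal cortex and from 8.28 to 12 M in the striatum. All 10 genes were listed and tested in the liver. In each brain region 9 were listed and 8 tested, because Igfals, at 0 to 6 counts per library, did not pass the filter on low counts and Igfbp1 was not analysed there. The labelled tissues were checked against markers by summed level in vehicle libraries, in CPM, which are counts per M counts of a library after scaling by edgeR's trimmed mean of M-values (TMM). Hepatocyte markers summed to between 105000 and 127000 CPM in the liver, to between 3.11 and 5.89 CPM in the prefrontal cortex and to between 3.89 and 608 CPM in the striatum. Of the 8 hepatocyte markers 5 were listed in the cortex and 4 in the striatum, and Ttr, a strong choroid plexus transcript, is on both of those lists. Over all striatal libraries the hepatocyte sum ran from 1.85 to 4100 CPM. Cortical excitatory neuron markers summed to between 2090 and 2460 CPM in the prefrontal cortex and between 371 and 1450 in the striatum. The striatal projection neuron sums overlapped, at 3590 to 7590 CPM in the striatum and 1430 to 3740 in the prefrontal cortex. Choroid plexus marker sums ran from 26.1 to 4510 CPM over all 21 striatal libraries. All levels below are TMM-scaled CPM unless they are stated per kb. Fold changes are log2 values fitted by edgeR, and a gene passed when its p, adjusted over all genes tested in the tissue, was under 0.05.

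In vehicle mice some genes of the axis were highest in the liver and others in the brain, and each role had members on both sides. The growth hormone receptor Ghr, Igf1, Igfals and the binding proteins Igfbp2 and Igfbp4 were high in the liver, while the receptor Igf1r, Igf2 and Igfbp5 were high in the brain. Per kb of longest transcript, which allows genes to be compared, liver levels were led by Igfbp2 (579 ± 135 CPM per kb, SD, n = 4) and Igfbp4 (396 ± 33.3). Ghr followed at 94.6 ± 9.3 CPM per kb, and Igfbp1 (65.4 ± 41.5), Igf1 (59.3 ± 19.8) and Igfals (43.8 ± 10.7) came next, with ranges of spread that overlapped. Igfbp3, the main carrier of IGF1 in serum, stood at 4.97 ± 2.57 CPM per kb and Igfbp5 at 1.19 ± 0.404. Igf2, a fetal growth factor largely silent in adult rodent liver, and Igf1r were lowest, at 0.182 ± 0.219 and 0.164 ± 0.048 CPM per kb.

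**Figure D1:**
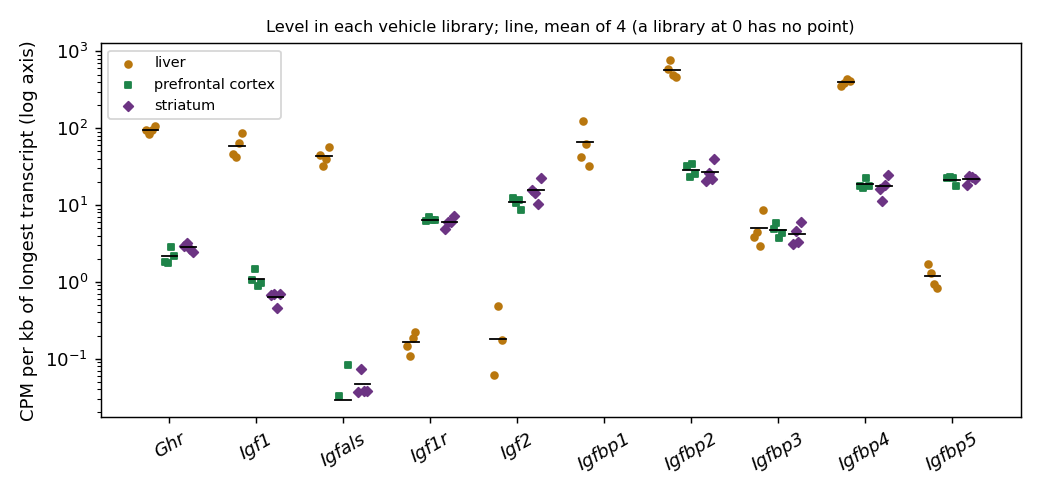
Level of each gene in the 4 vehicle libraries of each tissue, in TMM-scaled CPM per kb of the longest GENCODE transcript on a log axis. Points are libraries, lines are means, and a library at 0 has no point. Ghr, Igf1, Igfals, Igfbp2 and Igfbp4 are highest in the liver, and Igf1r, Igf2 and Igfbp5 are highest in the brain regions.

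The order in the brain was different. In the prefrontal cortex Igfbp2 stood at 28.5 ± 5.19 CPM per kb (SD, n = 4), Igfbp5 at 21.4 ± 2.67 and Igfbp4 at 18.6 ± 2.77, without clear separation between neighbours. Igf2 was at 10.9 ± 1.64 CPM per kb, Igf1r at 6.45 ± 0.327, Igfbp3 at 4.72 ± 0.908, Ghr at 2.16 ± 0.514 and Igf1 at 1.09 ± 0.265. The striatum had the same order, from Igfbp2 at 27.1 ± 9.13 CPM per kb down to Ghr at 2.8 ± 0.315 and Igf1 at 0.632 ± 0.114. Igfals was at 0 to 2 counts in every vehicle brain library.

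All 9 genes tested differed between the liver and the prefrontal cortex, but so did 84.9% of all genes, so the count is not particular to the axis. Of these, 6 were higher in the liver, where 38.9% of all genes were, and 3 were lower, where 46% were. The log2 differences were 6.69 for Igf1 (SE 0.281, edgeR adjusted p 6.28e-11), 6.39 for Ghr, 5.35 for Igfbp4, 5.27 for Igfbp2 and 1.00 for Igfbp3. Igfals was the sixth higher gene, and with 0 to 2 counts in the cortex its fold is not given. The lower genes were Igf2 (-5.00), Igf1r (-4.38) and Igfbp5 (-3.21). Against the striatum, Igf1 aside, the same 5 genes passed as higher and the same 3 as lower, beside 38.1% and 45.6% of all genes in those directions and 83.7% in all. Igf1 differed there by 7.55 (SE 0.288), given as a description because the striatal vehicle libraries are part of the contrast that selected it. These tests share the 4 vehicle liver libraries. A difference between tissues can reflect fewer cells of a type or less RNA per cell, which bulk libraries cannot tell apart.

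Between the brain regions of vehicle mice, 0 of the 7 genes other than Igf1 passed edgeR's test or had an unadjusted p under 0.05, and DESeq2 also called 0 of them, while 22.2% of all genes passed and 11.2% passed as lower in the striatum. Igf1 is described without a test, since its striatal vehicle libraries belong to the contrast that selected it. It read 7.35, 10.4, 6.27 and 6.73 CPM in the prefrontal cortex and 4.78, 4.91, 3.26 and 4.89 CPM in the striatum. The striatal values were the lower ones, and the log2 difference was -0.86 (SE 0.215). Igf2 differed by 0.44 (SE 0.204, edgeR unadjusted p 0.0552, adjusted p 0.155), and the other 6 lay between -0.24 and 0.30.

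In the striatum at 6 mg/kg, Igf1 was lower than in vehicle by a ratio of means of 0.477, the difference that selected the gene. The 4 vehicle libraries read 4.78, 4.91, 3.26 and 4.89 CPM, and the 5 at 0.1 mg/kg read 3.82, 3.44, 3.73, 2.83 and 4.51 CPM. At 1 mg/kg the values, from the lowest over the median to the highest, were 2.80, 4.28 and 6.46 CPM. At 6 mg/kg they were 1.68, 2.14 and 2.58 CPM. All 6 libraries at 6 mg/kg therefore lay below every other striatal library, and the vehicle, 0.1 and 1 mg/kg groups overlapped. The fitted log2 fold change was -1.06 (SE 0.221) against vehicle and -0.78 (SE 0.213) against 0.1 mg/kg. Groups that do not overlap, with the dosed group lower, occurred for 1.91% of all striatal genes against vehicle and 3.01% against 0.1 mg/kg. The shares are given for scale, since the contrast chose the gene.

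The counts behind these values were small. Igf1 had 33 to 51 counts per vehicle library and 15 to 23 per library at 6 mg/kg. Total counts were also lower at 6 mg/kg, at 8.55 to 9.2 M against 10.1 to 10.5 M in vehicle, and the part of depth in the Igf1 difference was not tested. With an offset for the GC content and length of transcripts, the log2 fold changes were -0.79 against vehicle and -0.5 against 0.1 mg/kg. At the lower doses Igf1 differed from vehicle by -0.01 at 1 mg/kg (SE 0.212) and by -0.28 at 0.1 mg/kg (SE 0.222). These are descriptions too, because they share the vehicle libraries of the contrast that selected the gene.

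Marker sums of the cell types that a striatal punch can hold overlapped between the groups, though oligodendrocyte sums barely did. Microglia markers, all 8 of 8 tested, summed to between 390 and 521 CPM in vehicle and between 409 and 568 CPM at 6 mg/kg, and 0 passed. Interneuron markers, 8 of 8 tested, summed to between 1690 and 1920 CPM in vehicle and between 1530 and 1790 CPM at 6 mg/kg. Oligodendrocyte markers, 7 of 7 tested, summed to between 4540 and 6860 CPM in vehicle and between 6830 and 9550 CPM at 6 mg/kg, with 0 passing. Astrocyte markers, 7 of 7 tested, summed to between 2810 and 3070 CPM and between 1800 and 2920 CPM. Cortical excitatory markers, 7 of 7 tested, ranged from 371 to 1450 CPM in vehicle and from 409 to 841 CPM at 6 mg/kg, with a median log2 fold change of -1.07 and 0 passing. In this comparison 0% of all genes passed, so a count of 0 does not set the markers apart. Before adjustment, edgeR's p was below 0.05 for 15.7% of all genes. It was so for 3 microglia markers as higher and 1 as lower, and for 2 oligodendrocyte and 1 astrocyte marker as higher. In the cortical excitatory list it was so for 1, as lower, and in the interneuron list for 0. Choroid plexus markers, 12 of 12 tested, had a median log2 fold change of 1.08. The part of these lists in the Igf1 difference was not tested.

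**Figure D2:**
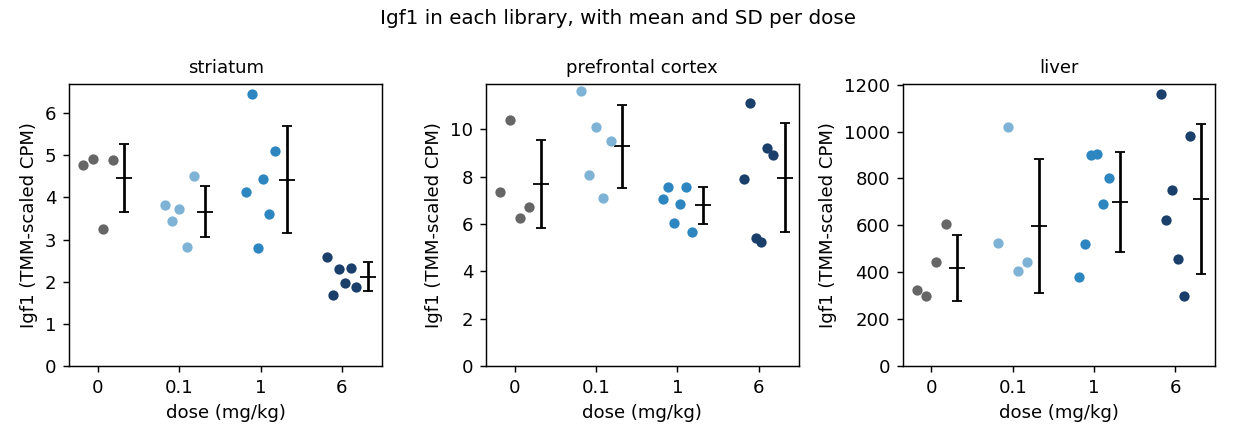
Igf1 in each library by dose (mg/kg) in the striatum, prefrontal cortex and liver, in TMM-scaled CPM on linear axes from 0 that differ between panels; bars are the mean and SD. The 6 striatal libraries at 6 mg/kg, between 1.68 and 2.58 CPM, lie below all other striatal libraries, while the dose groups of the other tissues overlap.

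The prefrontal cortex did not show this separation. Its Igf1 values at 6 mg/kg were 7.91, 11.1, 5.39, 5.25, 9.21 and 8.89 CPM, on both sides of the vehicle mean of 7.69 ± 1.87 CPM (SD, n = 4). The log2 fold change was 0.05 (SE 0.196, 95% interval -0.34 to 0.43, edgeR adjusted p 0.963). The difference between the striatal and cortical effects was -1.12 (SE 0.312) on the log2 scale and that between liver and striatum 1.81 (SE 0.429), both given as descriptions because they hold the contrast that chose Igf1. Among other striatal genes, those whose log2 CPM followed Igf1 most closely over the 21 libraries were Dpp10 (Pearson r 0.853), Napb (0.837), Ppfia2 (0.832), Nsf (0.828) and Rtf1 (0.803), as the highest of 15118 genes. These r include the 6 mg/kg libraries whose low Igf1 selected the gene, so a low level at that dose is built into the choice. With the dose means removed, their r with Igf1 lay between 0.505 and 0.665.

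Igf1 aside, the axis was tested in the striatum over 7 genes. At 6 mg/kg 0 of them passed edgeR's test, as did 0% of all genes, and DESeq2 also called 0. At an unadjusted p under 0.05 there was 1, against 15.7% of all genes. It was Igf1r, the tyrosine kinase receptor of IGF1, with 56, 68.3, 69.1 and 82.3 CPM in vehicle and 54.9, 66.4, 31.9, 56.9, 58.4 and 60.7 CPM at 6 mg/kg. All 6 dosed values lay below the vehicle mean of 68.9 CPM and only 2 below the lowest vehicle value, and the fitted difference was -0.33 on the log2 scale (SE 0.137, edgeR adjusted p 0.262). Without animal 54, which read 31.9 CPM, the difference was -0.21, and over all 16 alternatives it ran from -0.42 to -0.14. Ghr differed by 0.08 (95% interval -0.25 to 0.41), and Igf2, Igfbp2, Igfbp3, Igfbp4 and Igfbp5 by between -0.11 and 0.33.

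At 1 and 0.1 mg/kg 0 of the same 7 striatal genes passed or reached an unadjusted p under 0.05. Over all genes 0% passed at either dose, while 7.36% at 1 mg/kg and 2.53% at 0.1 mg/kg reached that unadjusted level. Between 6 and 0.1 mg/kg 2.91% of all striatal genes passed, while 22.3% reached an unadjusted p under 0.05. Of the 7 axis genes other than Igf1, 0 did either, with log2 differences from -0.18 to 0.52. Over dose rank 0 of the 7 passed, as did 0% of all genes. Igf1r had an unadjusted p under 0.05 there (0.044), as did 13.1% of all genes, with a slope of -0.09 per dose step. DESeq2 called 0 axis genes in each of these striatal comparisons.

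In the prefrontal cortex no change of the axis with dose was detected. None of the 8 genes passed edgeR's test, had an unadjusted p under 0.05 or was called by DESeq2 in any of the 5 dose comparisons run. The share of all genes that passed was 0% at each dose against vehicle, 0.108% between 6 and 0.1 mg/kg and 0.0202% over dose rank. Unadjusted p-values under 0.05 were held by 9.27% of genes at 6 mg/kg, 8.29% at 1 mg/kg, 6.43% at 0.1 mg/kg, 10.1% between 6 and 0.1 mg/kg and 9.79% over dose rank. At 6 mg/kg the log2 fold changes of the 8 genes ran from -0.20 for Igfbp3 (95% interval -0.47 to 0.07) to 0.09 for Igfbp2 (-0.30 to 0.48). Igf1r read 71.3, 79.2, 71.8 and 72.0 CPM in vehicle and 78.1, 78.6, 62.5, 50.1, 73.6 and 83.4 CPM at 6 mg/kg, with vehicle inside the dosed range. Igfbp5, a binding protein held in the extracellular matrix, averaged 128 ± 16 CPM over the 4 vehicle libraries and 119 ± 11 CPM over the 6 dosed ones (SD).

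**Figure D3:**
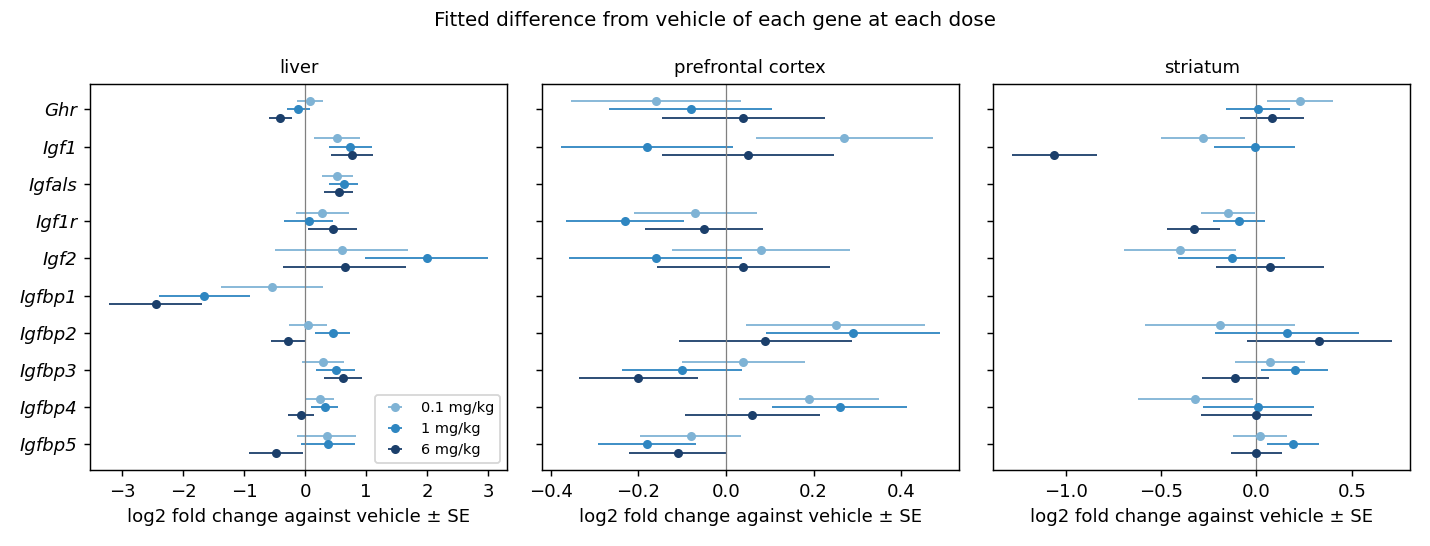
Fitted log2 fold change against vehicle of each gene at 0.1, 1 and 6 mg/kg in each tissue; points are edgeR estimates, bars are SE, and the horizontal scales differ between panels. Igfbp1 in the liver (-2.45 at 6 mg/kg) and Igf1 in the striatum (-1.06, the contrast that chose the gene) lie farthest below 0.

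In the liver the widest movement was that of Igfbp1, the insulin-repressed binding protein, whose level fell with dose. The vehicle libraries read 63.8, 190, 95.5 and 49.5 CPM, and those at 0.1 mg/kg 170, 16.8, 29 and 58.6 CPM. At 1 mg/kg the values were 31.2, 46.6, 12.3, 3.73, 42.3 and 55.3 CPM, and at 6 mg/kg 3.24, 17.2, 7.73, 21, 54.1 and 5.51 CPM. At 6 mg/kg 5 of 6 libraries lay below every vehicle library, and animal 56, at 54.1 CPM, lay inside the vehicle range. The groups overlapped, and the spread within each was wide.

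Over dose rank the log2 slope of Igfbp1 was -0.85 per dose step (SE 0.233, edgeR adjusted p 0.0429). It was the 1 axis gene of 10 that passed and it was falling, beside 4.81% of all genes that passed and 1.96% that passed as falling. By single doses it did not pass: the log2 fold change was -2.45 at 6 mg/kg (SE 0.766, edgeR adjusted p 0.0799), -1.65 at 1 mg/kg (SE 0.753, edgeR adjusted p 0.579) and -0.54 at 0.1 mg/kg (SE 0.832, edgeR adjusted p 0.994). Against 0.1 mg/kg, 6 mg/kg differed by -1.91 (SE 0.762, edgeR adjusted p 0.312), and by -0.94 without animal 23 of the 0.1 mg/kg group, whose library read 170 CPM.

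The call on the slope was narrow. It was lost on leaving out any of 11 single libraries of the 20, among them each vehicle library, with an adjusted p of up to 0.122 without vehicle animal 4. It was also lost with no filter on low counts, with the GC and length offset, with 1 surrogate variable and over mg/kg. For 6 mg/kg against vehicle, DESeq2 gave -2.46 (adjusted p 0.0333), and without animal 56 edgeR gave -3.19 (adjusted p 0.0236), both past the threshold.

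**Figure D4:**
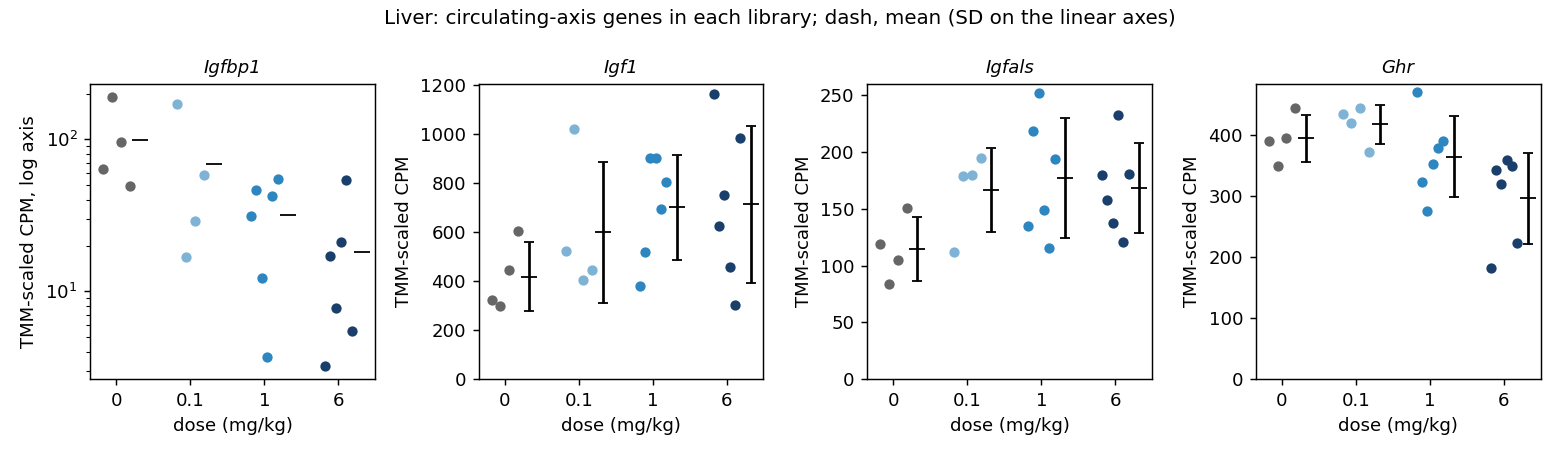
Igfbp1 (log axis), Igf1, Igfals and Ghr (linear axes from 0) in each liver library by dose in mg/kg, in TMM-scaled CPM; dashes are means, and bars on the linear axes are SD. Igfbp1 lies between 49.5 and 190 CPM in vehicle and between 3.24 and 54.1 CPM at 6 mg/kg, and Ghr at 6 mg/kg lies below all 0.1 mg/kg libraries.

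The liver libraries also differed in clock gene expression. Over all libraries it moved with Igfbp1 and Igf1, the genes compared with it, and less clearly so once dose means were removed. A clock index was taken as the log2 level of Dbp less that of Arntl. It was 2.04 to 5.45 in the 4 vehicle livers and 5.76 to 8.6 in all dosed livers, so vehicle and dosed livers did not overlap. The index and dosing against vehicle therefore cannot be told apart by these groups. With the index as a covariate the Igfbp1 slope was -0.58 (edgeR adjusted p 0.644), and the log2 fold changes were -0.85 at 6 mg/kg (edgeR adjusted p 1.0) and 0.14 at 1 mg/kg. Kupffer cell markers, 8 of 8 tested, summed to between 137 and 216 CPM in vehicle and between 190 and 394 CPM at 6 mg/kg, with 1 passing as higher. Of 13 genes of the fasting and insulin response, 1 passed as lower at 6 mg/kg and the median log2 fold change was -0.64. The part of the Kupffer cell and fasting genes in the Igfbp1 result was not tested.

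Igf1, Igfals and Igfbp3, which encode the parts of the circulating complex, had fitted values above 0 in the liver at 6 mg/kg, and none passed. Igf1 read 323, 300, 446 and 604 CPM in vehicle and 1160, 625, 749, 457, 301 and 981 CPM at 6 mg/kg. The dosed libraries spread widely, and 4 of 6 lay above every vehicle library. The log2 fold change was 0.77 at 6 mg/kg (SE 0.349, edgeR adjusted p 0.182), 0.74 at 1 mg/kg and 0.52 at 0.1 mg/kg. In the fit with the clock index the differences were -0.08 at 6 mg/kg, -0.04 at 1 mg/kg and -0.01 per dose step in place of 0.24. Igfals, the acid-labile subunit, read 119, 84.3, 105 and 151 CPM in vehicle and 180, 158, 138, 233, 121 and 181 CPM at 6 mg/kg, with all 6 above the vehicle mean. Its log2 fold change was 0.55 for 6 mg/kg (SE 0.235, edgeR adjusted p 0.157), 0.63 for 1 mg/kg and 0.53 for 0.1 mg/kg. At 6 mg/kg it was 0.32 with the GC and length offset and 0.38 with the clock index. Igfbp3, the third part of the circulating complex, averaged 12 ± 6.22 CPM over the 4 vehicle libraries and 18.4 ± 5.77 CPM over the 6 dosed ones (SD), which is a fitted difference of 0.62 on the log2 scale (95% interval -0.01 to 1.24).

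The growth hormone receptor went the other way. Ghr read 390, 350, 395 and 444 CPM in vehicle, 434, 420, 445 and 372 CPM at 0.1 mg/kg and 183, 343, 320, 359, 350 and 224 CPM at 6 mg/kg. The 6 mg/kg libraries all lay below the vehicle mean and below the lowest 0.1 mg/kg library, a lack of overlap found for 1.72% of all genes. Animals 52 and 58 were lowest, and the other 4 lay close to the vehicle minimum. The log2 difference was -0.41 from vehicle (SE 0.187, edgeR adjusted p 0.18) and -0.49 from 0.1 mg/kg (SE 0.187, edgeR adjusted p 0.285), and neither passed. The remaining liver genes had wide intervals. Igfbp2 differed at 6 mg/kg by -0.28 (95% interval -0.84 to 0.28), Igfbp4 by -0.07 (-0.49 to 0.35), Igfbp5 by -0.48 (-1.34 to 0.39), Igf1r by 0.45 (-0.33 to 1.23) and Igf2 by 0.65 (-1.34 to 2.63). Igf2 was at 0 to 2.82 CPM in all liver libraries but that of animal 45 at 1 mg/kg, which read 16.9 CPM.

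By count, 0 of 10 liver genes passed edgeR's test at 6 mg/kg beside 2.8% of all genes, and 4 had an unadjusted p under 0.05 (Igf1, Igfals, Igfbp1 and Ghr) beside 24.2%. DESeq2 called 1 at this dose, Igfbp1. At 1 mg/kg 0 passed beside 0% of all genes, and 3 had an unadjusted p under 0.05 beside 8.44%. At 0.1 mg/kg 0 passed beside 0.0154%, and 1 had an unadjusted p under 0.05 beside 4.1%. Between 6 and 0.1 mg/kg 0 passed beside 0.0386%, and 2 had an unadjusted p under 0.05 beside 12.8%. Over dose rank 4 genes had an unadjusted p under 0.05 beside 25.4%. DESeq2 called 0 at 1 mg/kg, at 0.1 mg/kg and between 6 and 0.1 mg/kg. The shares of axis genes with an unadjusted p under 0.05 rest on 10 genes and are not tested against the background. All doses share the vehicle libraries.

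An interaction term compared the response to the top dose between tissues. For liver against prefrontal cortex 0 of 9 axis genes passed beside 0.899% of all genes, and 1 had an unadjusted p under 0.05 beside 20%. It was Igfbp3, whose log2 responses differed by 0.81 (SE 0.362, edgeR adjusted p 0.218), and by 1.24 without vehicle animal 8. For liver against striatum, Igf1 aside, 0 of 8 passed beside 0.0277%, and 1 had an unadjusted p under 0.05 beside 14.3%. This was Igf1r, with 0.78 (SE 0.344, edgeR adjusted p 0.324). Between striatum and prefrontal cortex 0 of the 7 others passed beside 0%, and 0 had an unadjusted p under 0.05 beside 6.43%. DESeq2 called 0 in all 3. The Igf1 effect differed between liver and prefrontal cortex by 0.70 (95% interval -0.15 to 1.56, edgeR adjusted p 0.377).

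Further genes of the pathway were taken from a list of 57 that runs from growth hormone releasing hormone through JAK2, STAT5 and the SOCS inhibitors to the insulin receptor substrates, AKT and mTOR. In the liver 41 were tested at 6 mg/kg, where 1 rose and 0 fell, beside 2.8% of all genes that passed, with a median log2 fold change of -0.06 beside 0.023 for all genes. The gene that rose was Socs3, a feedback inhibitor of JAK signalling, whose mean was 5.26 ± 2.34 CPM over 4 vehicle libraries and 16.6 ± 7.58 CPM over 6 dosed ones (SD). It rose by 1.66 on the log2 scale (SE 0.325, edgeR adjusted p 0.0134). Over dose rank 2 of the 41 rose, beside 4.81% of all genes that passed. They were Socs3 with a slope of 0.51 (SE 0.106, edgeR adjusted p 0.0151) and Rptor, the mTOR complex subunit Raptor, with 0.16 (SE 0.0465, edgeR adjusted p 0.048). The means of Socs3 at 0.1 and 1 mg/kg were 8.0 and 7.11 CPM. Kupffer cell marker sums had means of 181 CPM in vehicle, 280 and 282 CPM at 0.1 and 1 mg/kg and 296 CPM at 6 mg/kg, and their part in the Socs3 result was not tested. The rise of Socs3 differed from the change in the prefrontal cortex by 2.11 (SE 0.441, edgeR adjusted p 0.0321). In the same interaction, where 0.899% of all genes passed, Tsc1, an inhibitor of mTOR, differed by 0.97 (SE 0.21, edgeR adjusted p 0.0333). For liver against striatum, where 0.0277% of all genes passed, neither did. Socs3 differed there by 1.52 (edgeR adjusted p 0.205) and Tsc1 by 0.87 (edgeR adjusted p 0.179).

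In the striatum 0 of 51 tested list genes passed at 6 mg/kg, and 1 higher and 9 lower had an unadjusted p under 0.05, beside 0% and 15.7% of all genes. The list had a median log2 fold change of -0.07 beside 0.01 for all genes. Those with the smallest p were Pik3ca, a catalytic subunit of PI3 kinase (-0.30, edgeR adjusted p 0.208), Sos1, a Ras exchange factor (-0.41), and Igfbp7, an IGFBP-related protein of vessels (0.42). Between 6 and 0.1 mg/kg, where 2.91% of all genes passed, 1 list gene did. It was Igfbp7, which was higher by 0.59 (SE 0.132, edgeR adjusted p 0.0324), with means of 32.0 ± 5.07 CPM over 6 libraries and 21.3 ± 2.53 CPM over 5 (SD). Among the mural cell markers of the striatum, 1 of 8 passed as higher in the same comparison, and its part in the Igfbp7 value was not tested. In the prefrontal cortex 0 of 45 passed at 6 mg/kg, with 1 higher and 5 lower at an unadjusted p under 0.05, beside 0% and 9.27% of all genes. The insulin receptor substrate Irs2 had the smallest p there. Its mean was 104 ± 7.3 CPM over 4 vehicle libraries and 71.2 ± 17.5 CPM over 6 dosed ones (SD), and the fitted log2 value was -0.54 (SE 0.176, edgeR adjusted p 0.365).

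Growth hormone reaches the rodent liver in a pattern that differs between the sexes and sets sex-biased liver genes, of which 42 of 44 listed were tested. At 6 mg/kg 0 passed, with 5 higher and 5 lower at an unadjusted p under 0.05, beside 2.8% and 24.2% of all genes. Over dose rank 2 rose and 1 fell, beside 4.81% of all genes that passed. These shares are near the background. A1bg rose with a slope of 0.70 (SE 0.183, edgeR adjusted p 0.0368), with means of 41.2 ± 30.7 CPM over 4 vehicle libraries and 177 ± 154 CPM over the 6 of the top dose (SD). Elovl3, a fatty acid elongase, rose with a slope of 0.53 (SE 0.144, edgeR adjusted p 0.0382) at 1.11 ± 0.664 CPM in vehicle and 3.12 ± 1.06 CPM at 6 mg/kg. Cyp2c40, a cytochrome P450 with close relatives in sequence that make its counts uncertain, fell with a slope of -0.27 (SE 0.0765, edgeR adjusted p 0.0462), from 548 ± 36.7 to 300 ± 112 CPM. The 3 do not share a direction of sex bias: A1bg is female-biased in mouse liver and Elovl3 male-biased. The median slope of the list was 0.0 beside 0.011 for all genes.

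Within the liver, Igf1 and Igfbp1 were opposed from library to library. Over the 20 libraries their log2 CPM had a Pearson r of -0.73 (permutation p adjusted over 4 relations 0.00092) and a Spearman rho of -0.73 (0.00144). Without the 2 libraries farthest from the Igf1 median r was -0.63, and on deviations from the dose means it was -0.70 (adjusted permutation p 0.00268). These 4 relations were chosen after the data had been seen. Igf1 and Igfals had an r of 0.48 (0.0322) and a rho of 0.41 (0.0735), and r was 0.31 on deviations. The clock index had an r of -0.63 with Igfbp1 (0.00489) and of 0.61 with Igf1 (0.00489), which became -0.38 (0.136) and 0.45 (0.0902) on deviations from the dose means. Over all 12968 liver genes those most like Igf1 were Fam25c (r 0.939), Cbarp (0.939), Baiap3 (0.93), Czib (0.929) and Pfdn6 (0.91).

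**Figure D5:**
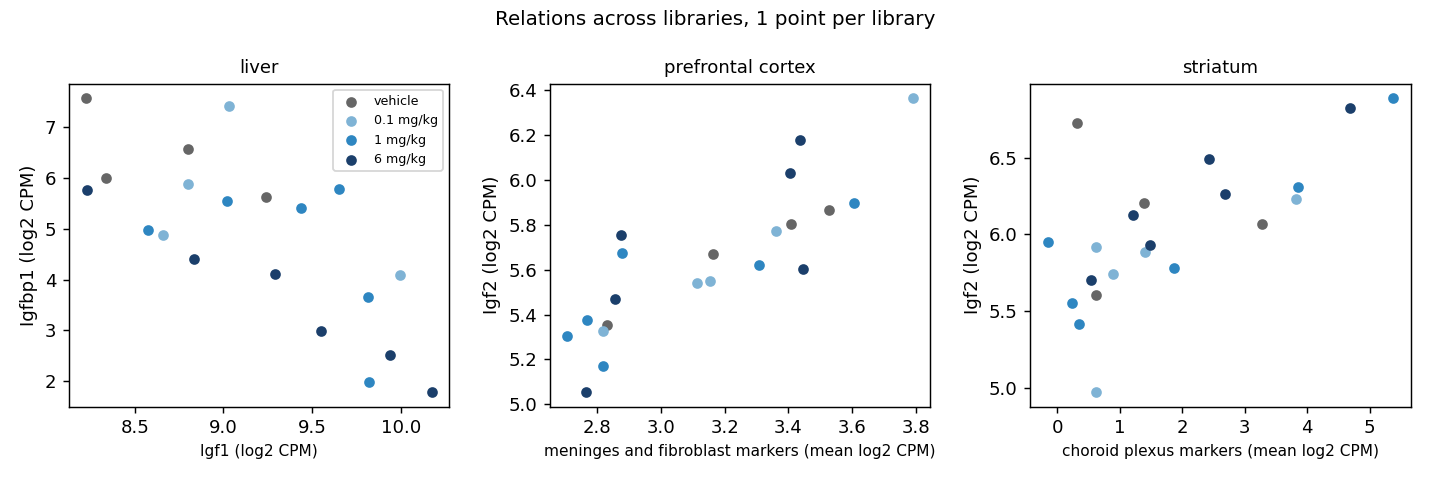
Relations across libraries, 1 point per library coloured by dose, on log2 CPM axes. Igfbp1 declines as Igf1 increases in the liver (r -0.73), Igf2 increases with meninges and fibroblast markers in the prefrontal cortex (r 0.84), and Igf2 increases with choroid plexus markers in the striatum (r 0.67).

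Brain Igf2 followed markers of bordering tissues in 2 of the 4 relations tested for it. In the prefrontal cortex its log2 CPM had an r of 0.84 and a rho of 0.88 with the mean of 12 meninges and fibroblast markers over 21 libraries, with an adjusted permutation p of 8e-05 over 8 relations, the smallest that the permutations can give. Without the 2 libraries farthest from the marker median r was 0.79, and on deviations from the dose means it was 0.84. In the striatum Igf2 had an r of 0.67 (0.00323) and a rho of 0.64 (0.00852) with 12 choroid plexus markers, and r was 0.47 without the 2 most distant libraries. Within single doses that r ran from -0.19 to 0.94. Striatal Igf2 had an r of 0.34 with the meninges and fibroblast markers (adjusted permutation p 0.208), which was -0.23 without 2 libraries. Cortical Igf2 had an r of 0.26 with the 4 of 12 choroid plexus markers that were tested in that region (adjusted permutation p 0.282). Striatal Igfbp2 had an r of 0.65 (0.00323) and a rho of 0.42 (0.168) with all 12 choroid plexus markers. Its r was 0.64 on deviations from the dose means (0.00445) but 0.34 without the 2 most distant libraries, where it was not tested. The size of the relation thus depended on those libraries. The highest striatal Igfbp2 value at 6 mg/kg, 89.5 CPM in animal 52, came with a choroid plexus sum of 2690 CPM, against 35.9 to 440 CPM in the other 5. The other 3 relations, all of Igfbp2, did not pass, with r from 0.08 to 0.34 and adjusted permutation p-values from 0.208 to 0.721.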

How the data were processed

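RNA sequencing counts were analysed for 62 libraries, 20 of liver and 21 each of prefrontal cortex and striatum. The authors deposited whole-number read counts per gene with Entrez identifiers, in 1 table per tissue that holds all dose groups, and these were used without change. TRIzol and RNeasy columns gave the RNA, and libraries followed either poly(A) capture or depletion of rRNA, per the labels' protocols. The submitters' processing notes name FastQC, HISAT2 and the build mm10. The counting tool, annotation and use of strand are not given in the sources used here. The smallest total of a listed gene was 10 counts, and genes below it were not analysed here.

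Libraries were grouped by the treatment label and matched to columns by title. Symbols and coordinates came from RefSeq GRCm38.p6, the same assembly as mm10, which named 99.95% to 99.97% of identifiers, and promoter sequences from its promoter table. Lengths and GC content were those of the longest GENCODE transcript of each Entrez gene. No pair of libraries agreed within sampling noise, with a chi-square per degree of freedom of at least 3.01. Counts were fitted with edgeR 4.0.16 (TMM, filterByExpr, robust quasi-likelihood) over all dose groups of a tissue, with Benjamini-Hochberg adjustment over 12968 liver, 14838 prefrontal cortex and 15118 striatum genes. SE was taken as the size of the log2 value over the root of F, and 95% intervals are 1.96 SE to each side. With few libraries these intervals are narrower than ones that match the edgeR test. Log2 CPM used a prior count of 2. Trends are slopes over dose rank. Interaction fits held only vehicle and top-dose libraries of both tissues. Correlations used 100000 two-sided permutations. The fits were tested on simulated counts.

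The axis genes, the lists and the tests were chosen with earlier results of these data known. All 10 genes are named in every tissue. From the pathway and sex-biased lists, passing genes and otherwise those with the smallest p are named, and for likeness the 5 genes with the highest r. Alternatives were DESeq2 1.42.0, size factors by median ratio, all genes without the filter, a GC and length offset, 1 surrogate variable (sva 3.50.0), only the 2 groups compared, a slope over mg/kg, the liver clock index as covariate, a block for animal number and leaving out single libraries in turn. Figures used matplotlib 3.10.9.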

Additional observations from a re-analysis of the deposited data

Results flagged for a closer look

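A library stood far from the others of its tissue and dose group in 14 of 112 sets of axis gene values. The measure was the gap to its nearest neighbour as a share of the range. For independent, normally distributed values chance flags about 1 set in 20, or 5.6. These sets share libraries and some hold few counts, so 14 was not tested against 5.6. In the liver these were Igf2 at 1 mg/kg in animal 45 (16.9 CPM, others at most 1.39), Igfbp1 at 6 mg/kg in animal 56 (54.1 CPM, others at most 21), Igfbp2 at 1 mg/kg in animal 42 (1820 CPM, others at most 1130) and Igfbp5 at 1 mg/kg in animal 50 (22.7 CPM, others at most 9.92). In the prefrontal cortex, vehicle Igf1r in animal 4 was high at 79.2 CPM and vehicle Igfbp4 in animal 7 at 86.9 CPM. At 1 mg/kg animal 45 was high for Igfbp4 (115 CPM) and low for Igfbp5 (81.7 CPM), and at 6 mg/kg animal 55 was high for Igfbp2 (61.5 CPM).

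In the striatum the low libraries were Igf1 in vehicle animal 7 (3.26 CPM, 33 counts, next value 4.78), Ghr in animal 50 at 1 mg/kg (6.42 CPM, next value 11.1) and Igf1r in animal 54 at 6 mg/kg (31.9 CPM, next value 54.9). Igfbp2 in animal 52 at 6 mg/kg was high at 89.5 CPM, next value 40.8. Igfals in vehicle animal 4, at 0.193 CPM, amounted to 2 counts.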

How the results depend on the processing

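Of 349 values of gene counts and correlations under the alternatives, 330 kept their side of the threshold or stayed within the spread, and 19 moved. For liver at 6 mg/kg the count of passing axis genes, 0, was 1 with DESeq2 and 0 to 1 on leaving out single libraries (1 without animal 56). For the liver trend the count, 1, was 0 with no filter on low counts, with the GC and length offset, with 1 surrogate variable, with the clock index and over mg/kg, and 0 to 1 on leaving out single libraries. Between striatum and prefrontal cortex of vehicle mice the count with Igf1, which the report only describes, was 1 to 2 on leaving out single animals (2 without animal 8). Single genes gave 530 values, of which 508 held, 16 lost the call, 2 gained it and 4 reversed. The losses were all of the Igfbp1 trend: adjusted p 0.062 with no filter, 0.0573 with the offset, 0.0644 with 1 surrogate variable, 0.644 with the clock index, 0.0931 over mg/kg, and up to 0.122 in the 11 removals of 1 library that lost it. These were vehicle animals 3, 4, 7 and 8, animals 28 and 29 at 0.1 mg/kg, 48 at 1 mg/kg and 52, 53, 54 and 58 at 6 mg/kg. The 4 reversals came with the clock index as covariate: liver Igf1 to -0.08 at 6 mg/kg, -0.04 at 1 mg/kg and -0.01 per dose step, and Igfbp1 to 0.14 at 1 mg/kg. The cause was not tested. As a replicate block, the animal number left the counts of passing axis genes between tissues at 1, 9 and 9 in vehicle mice and at 0 in the 3 interactions. In deviations from the dose means, same-numbered libraries correlated by a mean of 0.113 for striatum with prefrontal cortex (lowest -0.0906). The means were 0.00635 for liver with prefrontal cortex and 0.0052 for liver with striatum. Other pairs of the same dose had means of -0.0233, -0.00158 and -0.00199 in that order. Within the dose group, 11 of 21, 4 of 20 and 8 of 20 correlated best with their own number. Striatum and prefrontal cortex thus matched most by number. The labels do not say that an equal number is the same mouse, so numbers served only as the block. Depth limits Igfals in the brain (0 to 6 counts) and Igf1 in the striatum (15 to 68 counts).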
